A study of Vitis rotundifolia with 12 samples.

Results

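The pedicels of a weakly and a strongly attached muscadine genotype were compared at the pea-size stage (Stage 1), before ripening. With earlier results of these data known, the libraries were picked by their genotype and developmental stage labels. They comprised 3 libraries of Ga. 12-3-22 (W, labelled weakly attached) and 3 libraries of Ga. 6-1-269 (S, labelled strongly attached), which are 6 of the 12 libraries of the series. The other 6 libraries came from the same genotypes at maturity (Stage 4), and they entered only where the pea-size differences were followed to that stage. The study asked which genes accompany easy or difficult fruit detachment in muscadine grape (Vitis rotundifolia), and every library was made from pedicels flash frozen in liquid nitrogen. Each group had 3 biological replicates. W and S are each represented by 1 genotype, so weak or strong attachment cannot be told apart from any other difference between these vines. A tissue type label reads mature for all 12 libraries, the pea-size ones included, and it was not used.

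The pedicel is the stalk that carries the berry, and it supplies the growing fruit with water and sugars through its vascular tissue. At its junction with the fruit lies the abscission zone, a band of small cells where the organ can later separate. In plants in general, separation follows the loosening of the cell wall between these cells, which is governed by ethylene and auxin. At the pea-size stage the berry is still growing and no ripe fruit is ready to be shed.

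Expression was measured as read counts on 26394 gene models spread over 20 chromosomes of the 'Noble' muscadine genome. The identifiers of the gene models carry a chromosome and a serial number but no gene name or function, and none was found in the available table of grape gene names. The markers of pedicel tissue therefore could not be checked, and the differences are described by their number, size, level and place, with 4 gene models given by identifier. In the pea-size libraries, 21682 gene models had at least 1 count and 12726 had at least 10 counts in every library. The W libraries held between 6769232 and 15404644 gene counts and the S libraries between 9785778 and 14067641.

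More gene models were called higher in S than in W at the pea-size stage, and among the called ones the differences in favour of S were larger. A gene model was called when edgeR's quasi-likelihood test gave a Benjamini-Hochberg adjusted p of at most 0.05 and a log2 fold change (log2FC, W minus S) of at least 1 in size. Of 17103 gene models tested, 1036 (6.06%) were called higher in S and 711 (4.16%) were called higher in W, which makes 1747 (10.2%) in either direction. Among the S-higher gene models the median log2FC size was 2.71, with quartiles of 1.73 and 4.66 and a median standard error of 0.496. Among the W-higher gene models the median was 1.69, with quartiles of 1.29 and 2.80 and a median standard error of 0.337. Putting gene models without any count in the lower genotype at the bound set by 3 counts left both medians as they were. This is no check on the sizes, because such gene models lie above the medians either way. Called or not, the genotypes were closer. Over the gene models also tested at maturity, the median pea-size log2FC was 0.50 among those fitted higher in W. It was -0.64 among those fitted higher in S. The counts depended on each S library: 357 gene models higher in S and 245 higher in W were called without S replicate 1, 437 and 331 without S replicate 2, and 430 and 311 without S replicate 3. When the counts were scaled to library totals without TMM factors, 1241 were higher in S and 538 in W, and the median log2FC of all tested gene models moved from -0.02 to -0.17.

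The balance between the genotypes changed with the size of the difference. With a log2FC size between 1 and 2, 422 gene models were higher in W and 349 in S. Between 2 and 4 the order was the other way round, with 175 higher in W and 367 in S. At 4 and over, 114 were higher in W and 320 in S. A size of at least 2 was thus reached by 66.3% of the S-higher and by 40.6% of the W-higher gene models. No count from the genotype with the lower level was found for 109 of the S-higher and 29 of the W-higher gene models.

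In nearly all called gene models the replicates of the genotypes were fully apart. All 1036 S-higher gene models had every S library above every W library, and 709 of the 711 W-higher gene models had every W library above every S library. The calls were made on the same 6 libraries, so this separation follows largely from the selection and adds no support to them. Among all tested gene models it was seen in 20.4% for S above W and in 15.5% for W above S, together 35.9%. At least 10 counts in every one of the 6 libraries were found for 624 of the S-higher and 596 of the W-higher gene models, so that a level was measured on both sides.

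**Figure D1:**
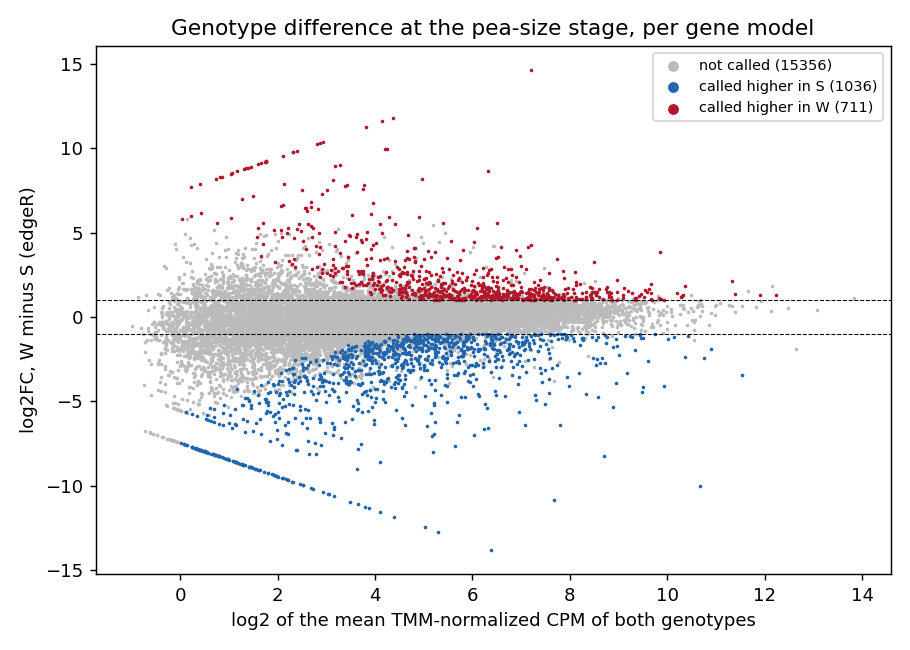
Genotype difference (log2FC, W minus S) of each tested gene model against its mean level (log2 CPM, counts scaled to a common library size) at the pea-size stage, with the 711 gene models called higher in W and the 1036 called higher in S marked by colour. The S-higher gene models extend further from 0, and the W-higher ones gain in share towards the right of the plot.

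The direction of the difference varied with expression level. Levels are given as CPM, read counts scaled to a common library size and not to gene length, so they place gene models in classes and do not rank genes against each other. Among the 2941 gene models under a log2 CPM of 2, 4.52% were higher in S and 1.09% in W. Between 2 and 4, 5.88% were higher in S and 2.53% in W, and between 4 and 6 the shares were 6.84% and 4.43%. In the next class, from 6 to 8, the order turned, with 5.90% higher in S and 7.46% in W. Among the 609 gene models at 8 and over, 8.54% were higher in S and 12.8% in W. The median log2FC of all tested gene models in these classes went from -0.51 in the lowest to 0.38 in the highest. Of the 100 gene models with the highest level, 18 were called higher in W, 10 were called higher in S, and 72 had a log2FC above 0.

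The same pattern was seen in the levels of the called gene models. S-higher gene models had a median of 36.9 CPM in S and 6.19 CPM in W. W-higher gene models had a median of 71.6 CPM in W and 20.9 CPM in S, so their lower level was above that of the S-higher ones. In such bulk tissue, fewer cells of a type and less RNA per cell cannot be told apart.

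Properties of the whole libraries were compared next, since they could move with the genotype. At an equal depth of 6769232 counts, W replicates 1, 2 and 3 were expected to hold 15273, 14352 and 15389 gene models with at least 10 counts, and S replicates 1, 2 and 3 held 16317, 16419 and 16400. All 3 S libraries were above all 3 W libraries, by a mean of 16379 ± 54.6 (SD, n = 3) against 15004 ± 568. The exact two-sided permutation test gave p = 0.10, the smallest that 3 against 3 libraries allow, and 0.533 after adjustment over 8 library measures. The share of reads outside any gene model was 16.9%, 17.6% and 10.6% in the W libraries and 11.0%, 10.9% and 14.6% in the S libraries, so W replicate 3 lay below all S libraries and the genotypes overlapped. The gene model with the highest level took 22229, 32180 and 2177 CPM in W and 2661.5, 3244.5 and 22691 CPM in S. It was high in W replicates 1 and 2 and in S replicate 3, the same 3 libraries that had the largest share of reads outside gene models, and it was not called. With that share as a covariate, 1189 gene models were called higher in S and 790 higher in W.

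Replicates of W varied more than replicates of S. The Spearman correlation of expression levels over tested gene models was 0.884 to 0.907 between W libraries, 0.958 to 0.967 between S libraries and 0.817 to 0.866 between the genotypes. The median SD of a gene model over its 3 replicates, on a log2 scale of CPM plus 0.5, was 0.57 in W and 0.298 in S, and it was larger in W for 76.3% of gene models. This held in each level class, from 1.07 in W and 0.65 in S under a log2 CPM of 2 to 0.347 and 0.164 at 8 and over. Leaving out W replicate 3 gave 1503 gene models higher in S and 952 higher in W.

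The gene models given by identifier were picked for a large difference without overlap in these same pea-size libraries. Their separation at this stage was thus fixed by the choice and adds no support. The gene model with the largest difference in favour of W was evm.model.chr10.286 on chromosome 10. Its level was 245, 210 and 424 CPM in W replicates 1, 2 and 3, a mean of 293 ± 115 (SD, n = 3), from 1632, 1325 and 6412 counts. No count was found in any S library. The genotypes did not overlap, and the W mean was at least 3720-fold higher than the level that 3 counts over the S group would give. The fitted log2FC was 14.66 (SE 0.67, adjusted p = 7.318e-05 by edgeR), and since S was at 0 its size rests on the prior count of the fit. Over 14 other settings the log2FC of evm.model.chr10.286 lay between 13.96 and 14.98, with adjusted p up to 0.000991.

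Among W-higher gene models with at least 10 counts in every library, evm.model.chr10.312 had the largest difference, and it lies 26 serial numbers from the former on the same chromosome. It was at 38.6, 133 and 77.9 CPM in the W replicates and at 2.61, 1.34 and 1.23 CPM in the S replicates. The lowest W library was well above the highest S library, although the W libraries themselves covered a wide range. The mean was 83.0 ± 47.2 CPM in W and 1.73 ± 0.767 CPM in S (SD, n = 3), a ratio of 48.1, and the log2FC was 5.58 (SE 0.55, adjusted p = 0.000287 by edgeR).

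The largest difference in favour of S belonged to evm.model.chr17.11 on chromosome 17. It had 200, 157 and 140 CPM in S replicates 1, 2 and 3, a mean of 166 ± 31.0 (SD, n = 3), from 2606, 1643 and 2045 counts. The W libraries held no count for it. The S libraries were close to each other, and their mean was at least 1552-fold higher than the level that 3 counts over the W group would give. The log2FC was -13.84 (SE 0.56, adjusted p = 4.251e-05 by edgeR), again with a size that rests on the prior count.

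The last of the 4, evm.model.chr4.175 on chromosome 4, had the largest difference in favour of S among gene models with at least 10 counts in every library. Its level was 519, 443 and 354 CPM in the S replicates and 7.07, 4.90 and 3.96 CPM in the W replicates. Both genotypes were tight, and no values were shared between them. The mean of 439 ± 82.8 CPM in S was 82.6 times the 5.31 ± 1.59 CPM in W (SD, n = 3), with a log2FC of -6.39 (SE 0.33, adjusted p = 3.016e-05 by edgeR). Over 15 other settings the log2FC of evm.model.chr4.175 was between -6.64 and -6.19, and its adjusted p stayed at or below 0.0206. All 4 gene models kept their direction and their call at the pea-size stage in each of the 14 or 15 settings in which they were fitted. Those settings used the libraries from which the gene models were picked.

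**Figure D2:**
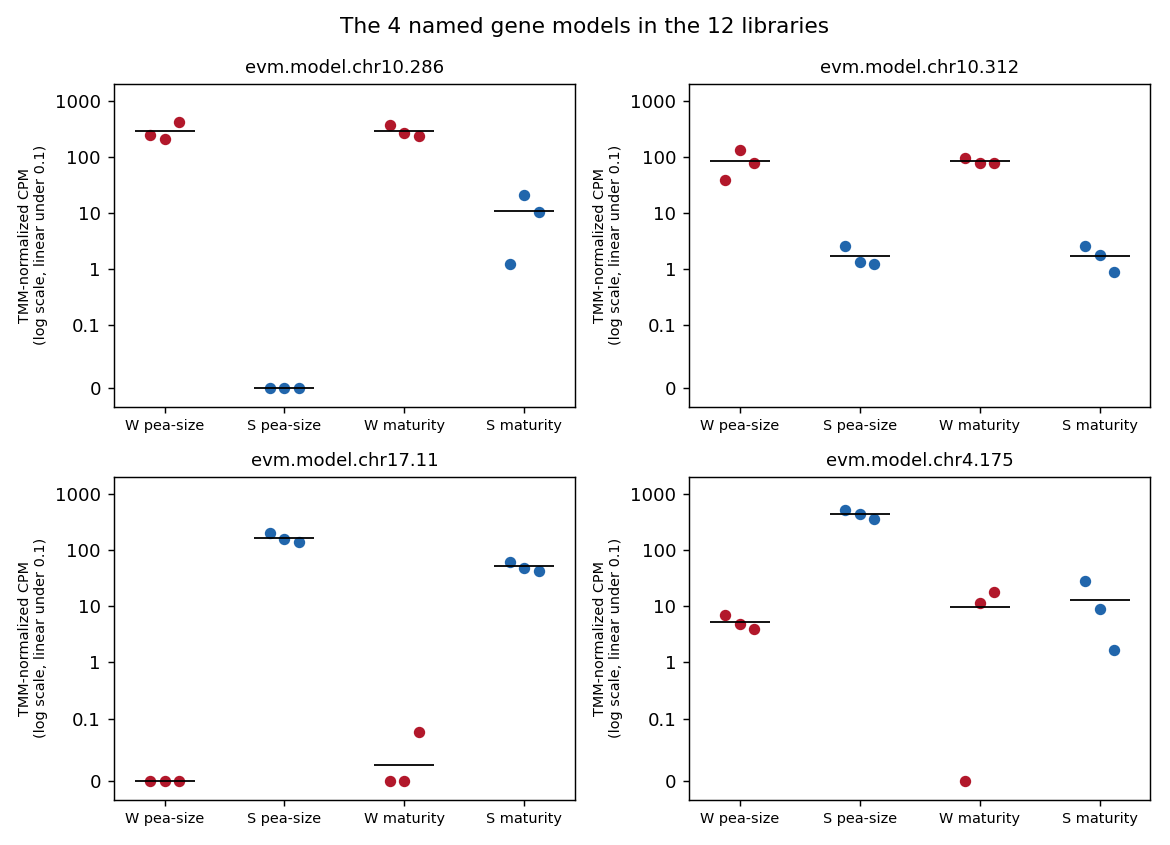
Normalised level (CPM) of the 4 named gene models in each library, by genotype and stage, with 1 point per library and a bar at the mean, on a log axis that is linear under 0.1. At the pea-size stage the 3 W and 3 S libraries of each gene model do not overlap, which the rule for naming them required. For evm.model.chr4.175 the S libraries fall from 354 to 519 CPM at the pea-size stage to between 1.68 and 27.9 CPM at maturity, where the genotypes overlap.

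A more restrictive description, which needs no fitted fold change, counted gene models detected in 1 genotype only. A total of 144 gene models (0.546% of 26394) had at least 10 counts in each S library and none in any W library. The reverse pattern was found for 29 gene models (0.110%). Of the 15817 gene models with at least 10 counts in each S library, 0.91% were thus at 0 in W, and of the 13184 with at least 10 counts in each W library, 0.22% were at 0 in S. A count of 0 over the group allowed a level of up to 0.107 CPM in W and 0.0787 CPM in S, the same limits as for the named gene models, for counting error only. The reads were mapped to the genome of another cultivar, so a gene that is not expressed, one that is missing from a genotype and one whose sequence is too different to be mapped cannot be told apart. The S list held 438 gene models without W replicate 3, the deepest W library. The W list held 57 without W replicate 1, 49 without W replicate 2 and 69 without S replicate 3.

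Most of these gene models were not abundant. The mean count in the detected genotype ranged from 13.0 to 2098 with a median of 42.7 for the S list, and from 10.7 to 3123 with a median of 57.0 for the W list. The test called 109 of the 144 higher in S and 27 of the 29 higher in W. The others either did not pass the filter, and so were not tested, or were tested without a call. Since the lists were chosen from the same 6 libraries, the direction was fixed beforehand and these calls add no support. Both lists came from many chromosomes, though not evenly. The S list made up 1.26% of the gene models of chromosome 12 and 0 of those of chromosome 19. The S list covered 19 chromosomes with at most 16 gene models on any of them, and 20 of the 144 had another member within 5 serial numbers. The W list covered 16 chromosomes with at most 4 on any of them, and 2 of the 29 had such a neighbour. How many close neighbours an even spread would give was not computed.

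These lists were then counted in the mature libraries, which had no part in choosing them. Of the 144 gene models without a count in W at the pea-size stage, 94 (65.3%) had no count in the mature W libraries either. Among these 94, 13 had no count in the mature S libraries. At least 10 counts in each mature library of the detected genotype were kept by 39 of the 144 and 12 of the 29. Of the 29 without a count in S at the pea-size stage, 2 (6.9%) had none in the mature S libraries, and 5 had at least 10 counts in each of them. A set of 25 gene models had no count in any of the 6 W libraries and at least 10 in each of the 6 S libraries, and 1 gene model had the reverse. The depth differed, with 24413962 gene counts over the mature W libraries and 52160329 over the mature S libraries, and its part in this contrast was not tested.

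**Figure D3:**
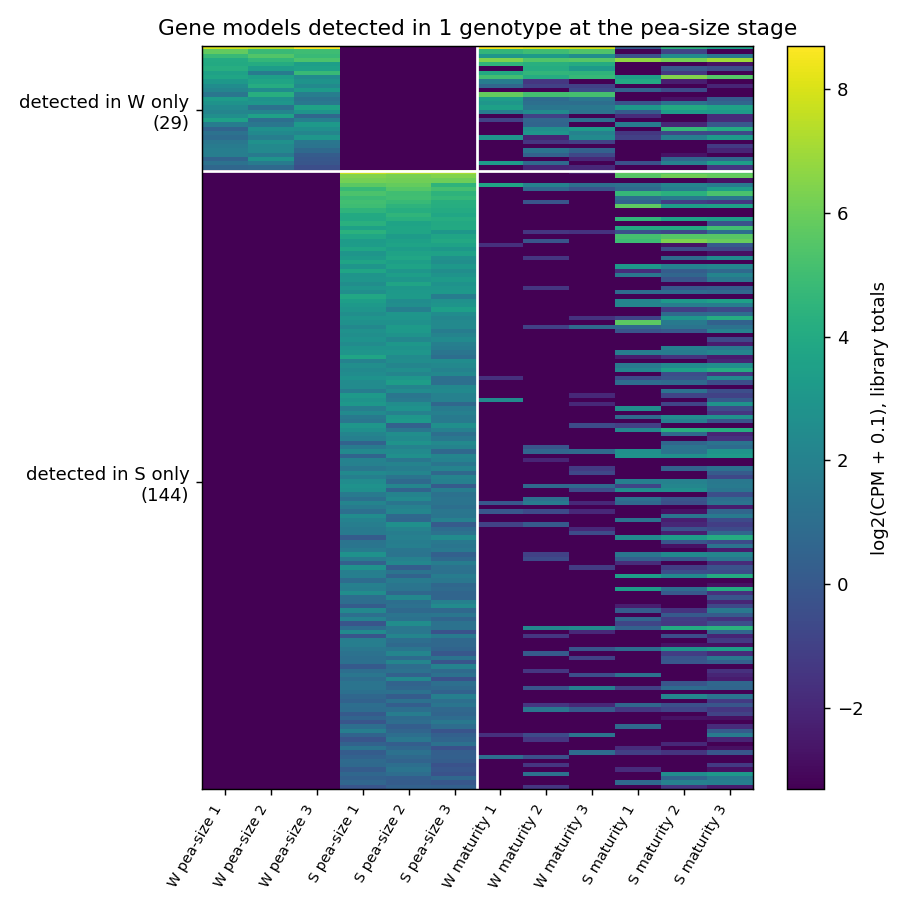
Levels of the 29 gene models detected only in W and the 144 detected only in S at the pea-size stage, with 1 line per gene model and 1 column per library. The colour gives log2(CPM + 0.1) scaled to library totals, and the darkest colour stands for 0 counts. Of the 29, 27 had at least 1 count over the mature S libraries, but only 5 had at least 10 in each of them. Of the 144, 94 had no count in mature W, and 13 of those 94 had none in mature S. The mature S libraries held 52160329 gene counts and the mature W libraries 24413962, and the part of depth was not tested.

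Differences in both directions were found on all 20 chromosomes. The share of tested gene models called higher in S ran from 3.38% on chromosome 9 to 7.77% on chromosome 3. The share called higher in W ran from 2.30% on chromosome 16 to 6.41% on chromosome 10, which also carries both named W-higher gene models. Only chromosomes 9 and 18 had more calls in W than in S, with 27 against 21 and 80 against 78, and chromosome 1 had 62 in each direction.

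**Figure D4:**
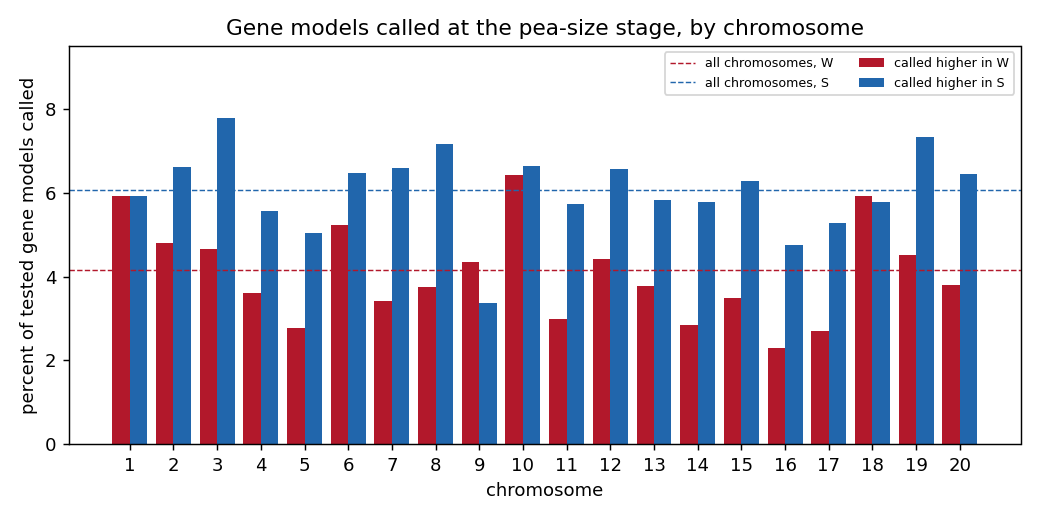
Percent of tested gene models called higher in W and higher in S on each of the 20 chromosomes at the pea-size stage. Bars start at 0, and the S bar is the taller one except on chromosomes 9 and 18 and, with equal counts, chromosome 1.

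Calls in the same direction lay next to each other more often than the overall share. The next tested gene model on the chromosome, by serial number, was also higher in S for 12.0% of 1034 S-higher gene models, against 6.06% over all neighbouring pairs. For W-higher gene models it was 9.30% of 710, against 4.16%. The opposite call followed in 3.19% of cases after an S-higher gene model and in 6.90% after a W-higher one. The longest uninterrupted runs held 4 S-higher gene models, found at 5 places, and 3 W-higher ones, found at 6 places. How serial numbers relate to distance along the chromosome was not checked. Neighbouring gene models that overlap or are near-identical copies could share reads, and the strand setting of the counting is not given in the sources used here, so such pairs are uncertain.

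The densest place was on chromosome 13. The tested gene models were taken in blocks of 50 along each chromosome, which gave 334 full blocks with a median of 3 S-higher and 2 W-higher gene models. The block between serial numbers 560 and 650 on chromosome 13 held 15 S-higher and 2 W-higher gene models, and the next block by S-higher calls held 10. The log2FC sizes of the 15 ranged from 1.96 to 8.76 with a median of 5.20, and their median levels were 72.4 CPM in S and 2.80 CPM in W. At maturity 12 of the 15 were tested, 10 kept the sign and 1 was called in the same direction. Over all S-higher gene models tested at maturity, 75.5% had the same sign and 6.22% were called in the same direction. The block with most W-higher calls lay on chromosome 18 between serial numbers 1148 and 1254 and held 8 of them, with a median log2FC size of 2.67. All 8 were tested at maturity, where 5 had the same sign and 0 were called in the same direction. Over all W-higher gene models tested at maturity, these shares were 69.3% and 6.49%. The block counts are small and were not tested against the overall shares.

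The surroundings of the named gene models were counted too. Over all tested gene models 6.06% were called higher in S and 4.16% higher in W. The counts below are small and were not tested against these shares. Next to evm.model.chr4.175, 6 of 25 tested gene models within 20 serial numbers were also higher in S and none was higher in W. It belonged to an uninterrupted run of 4 between serial numbers 174 and 182, whose log2FC ranged from -8.04 to -4.72. For evm.model.chr10.286, 2 of 28 neighbours were higher in W and 2 in S, and it formed a run of 2 with a log2FC of 11.61 and 14.66. For evm.model.chr10.312, 0 of 22 neighbours were higher in W and 3 were higher in S. For evm.model.chr17.11, none of 10 tested neighbours was called.

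The genotype difference at the pea-size stage was then followed to maturity, in libraries that were not used for the calls. At maturity the test called 170 of 16674 gene models (1.02%) higher in W and 160 (0.960%) higher in S. Of the 711 W-higher gene models at the pea-size stage, 693 were tested at maturity, 480 (69.3%) had the same sign and 45 (6.49%) were called in the same direction. Of the 1036 S-higher ones, 852 were tested, 643 (75.5%) had the same sign and 53 (6.22%) were called in the same direction. Calls in the opposite direction at maturity were made for 2 of the W-higher and 5 of the S-higher gene models. Among all gene models fitted higher in W at the pea-size stage 56.2% had the same sign at maturity, and among those fitted higher in S 67.0%.

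The median differences were smaller at maturity. The median log2FC of the W-higher gene models went from 1.66 to 0.55, and that of the S-higher ones from -2.31 to -0.90, over those tested at both stages. These gene models were chosen for their size at the pea-size stage, and the part of this choice in the decrease was not tested. Over the 15996 gene models tested at both stages the Spearman correlation of the log2FC was 0.31, and over the 1545 called at the pea-size stage it was 0.535, given as a description across genes of the same genotypes.

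The share with the same sign at maturity was also counted by the size of the pea-size difference. With a log2FC size of 4 and over, 141 of 164 S-higher gene models (86.0%) had the same sign at maturity and 27 were called, whereas between 1 and 2 the sign was shared by 67.2% and 10 were called. For the W-higher gene models the shares were 73.2% of 97 at 4 and over, with 16 called, and 69.9% between 1 and 2, with 23 called. Of the 320 S-higher gene models at 4 and over, the other 156 could not be tested at maturity because their counts did not pass the filter. A gene model still without counts in the lower genotype at maturity passes this filter only through the other genotype. Its sign is then fixed beforehand and is no separate result. How much of the 86.0%, or of its distance from 67.2%, comes from such gene models was not tested. The shares over all called gene models include them too.

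The median levels of the called gene models were set side by side in the 4 groups. Over the S-higher gene models the median level in S was 36.3 CPM at the pea-size stage and 11.7 CPM at maturity, while in W it was 6.10 and 6.40 CPM. Over the W-higher gene models the median in S was 20.6 CPM at the pea-size stage and 38.9 CPM at maturity, and in W it was 70.5 and 59.3 CPM. In both lists the larger shift of the median was in S. These medians come from a scaling of all 12 libraries together and describe gene models that were selected on the pea-size values.

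The number of shared calls depended on the mature libraries. Together 98 gene models were called in the same direction at both stages and 7 in opposite directions. Without S maturity replicate 1 the numbers were 529 and 108. Without S maturity replicate 2 they were 35 and 1, and without S maturity replicate 3 they were 29 and 0. Without W maturity replicates 1, 2 and 3 the same direction was called for 6, 8 and 6 gene models and the opposite for 0. S maturity replicate 1 had 30.4% of its reads outside gene models, against 11.0% to 21.8% in the other mature libraries. The share with the same sign moved much less, from 72.7% to between 68.2% and 74.1%.

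**Figure D5:**
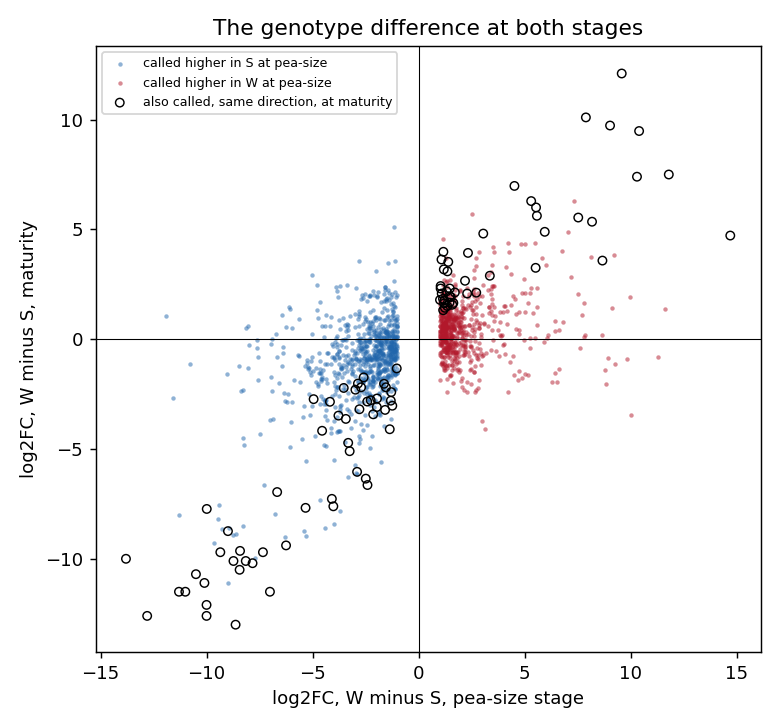
Genotype difference (log2FC, W minus S) at maturity against that at the pea-size stage, for the 1545 gene models called at the pea-size stage and tested at both. Points in the lower left and upper right quadrants share the sign, which 72.7% do, and the 98 called in the same direction at both stages are marked.

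Whether the genotype difference itself changed between the stages was tested as an interaction over the 12 libraries. It was called for 423 of 18439 gene models (2.29%), with W minus S higher at maturity for 237 (1.29%) and lower for 186 (1.01%). Leaving out S maturity replicate 1 gave 1955. The total fell to 242 and 270 when S maturity replicates 2 and 3 were left out, to 167, 184 and 192 for S pea-size replicates 1, 2 and 3, to 231 for W pea-size replicate 1, and to 176 and 178 for W maturity replicates 2 and 3.

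The named gene models were also followed to maturity. evm.model.chr10.312 had 95.1, 78.8 and 78.3 CPM in mature W and 2.58, 1.79 and 0.882 CPM in mature S, so the genotypes remained apart at levels close to those before ripening. Its log2FC at maturity was 5.62 (SE 0.48, adjusted p = 0.00676 by edgeR), though the adjusted p rose to 0.0505 without W maturity replicate 1 and to 0.0569 without W maturity replicate 3. The genotype by stage interaction over the 12 libraries was 0.11 (adjusted p = 0.98).

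For evm.model.chr17.11 the mature S libraries had 62.3, 48.4 and 43.0 CPM, and the mature W libraries had 0, 0 and 1 count. The genotypes were apart at both stages. The log2FC at maturity was -10.04 (SE 0.67, adjusted p = 0.0036 by edgeR), and with each mature library left out in turn the adjusted p was at most 0.0427. The interaction of evm.model.chr17.11 was 4.0 (adjusted p = 0.394) and was called in 0 of 12 fits with 1 library left out.

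evm.model.chr10.286, which had no count in pea-size S, had 1.23, 21.1 and 10.3 CPM in mature S and 366, 268 and 236 CPM in mature W. W stayed above S, with a log2FC of 4.72 (SE 0.89, adjusted p = 0.0467 by edgeR). This call at maturity was lost, with adjusted p from 0.0714 to 0.181, when any mature library other than S maturity replicate 1 was left out.

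evm.model.chr4.175 was at 27.9, 8.88 and 1.68 CPM in mature S and at 0, 11.3 and 18.1 CPM in mature W. The genotypes overlapped, and the log2FC of -0.36 (SE 1.38, adjusted p = 0.925 by edgeR) was smaller than its error. The interaction of evm.model.chr4.175 was 6.11 on the log2 scale with an adjusted p of 0.0808, which did not pass the threshold. It passed without W maturity replicate 1 (adjusted p = 0.0184) and without S maturity replicate 1 (0.0215), and with any other library left out the adjusted p was between 0.0851 and 0.197.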

How the data were processed

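Total RNA of pedicels was sequenced by the authors as directional libraries. They trimmed the reads, mapped them with STAR to the 'Noble' genome, took out likely PCR duplicates and used HTSeq to count the uniquely mapped reads. The deposited files hold raw read counts for 26394 gene models, 1 file per library, and 5 summary entries, which were left out of library sizes and tests.

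Genotype and stage were taken from the labels. In R 4.3.3, edgeR 4.0.16 (limma 3.58.1) fitted the 6 pea-size libraries with 1 mean per genotype: filterByExpr (minimum count 10, minimum total 15), TMM scaling, robust quasi-likelihood F test and Benjamini-Hochberg adjustment over 17103 gene models. A call needed an adjusted p no higher than 0.05 together with a log2FC size of 1 or more. The standard error was obtained as the log2FC size over the root of the F statistic. The 6 mature libraries were fitted the same way, and the genotype by stage interaction was tested over all 12 libraries. On simulated pea-size data, edgeR called 109 of 200 gene models with a true log2FC size of 2 and 177 of 200 with 4. It called 0 in the wrong direction, and it called 5 and 12 unchanged gene models. The simulation gave both genotypes the same spread and changed equal numbers in each direction, above a minimum level. In the data the median SD was 0.57 in W and 0.298 in S, and the calls were not balanced. The simulated numbers are therefore not error rates of this comparison. DESeq2 1.42.0 and other scalings, filters, thresholds and left-out libraries were alternatives, and the share of reads outside gene models as a covariate was added after seeing the data.

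Named gene models are, in each direction, the called one with the largest log2FC size and the one with the largest size among those with at least 10 counts in every pea-size library. Both needed a mean of at least 50 counts and no overlap between the genotypes. The libraries, thresholds and naming rule were chosen with earlier results of these data known.

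Gene counts per pea-size library were 6769232 to 15404644 with a median of 11094995. Limits for a count of 0 take 3 counts over the group and cover counting error only. No replicate pair was a duplicate: the chi-square per degree of freedom was at least 21.0. Of the identifiers, 0 occurred in the reference table of gene names, which belongs to the cultivar 'Carlos', so no sequence or function was assigned.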

Additional observations from a re-analysis of the deposited data

Results flagged for a closer look

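The genotype difference of evm.model.chr10.286 (W minus S) differed between the stages by the interaction test over 12 libraries. The log2FC at maturity minus that at the pea-size stage was -9.99 (adjusted p = 0.0246 by edgeR), with a size that rests on the prior count, pea-size S being at 0. The sign was the same, from -10.57 to -9.04, whichever of the 12 libraries was left out. The adjusted p was at most 0.05 in 6 of these 12 fits and rose to 0.0736 in the others.

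The interaction test was also called for 116 of the 711 W-higher and 121 of the 1036 S-higher gene models at the pea-size stage, and in 111 and 119 of these it ran against the pea-size difference. Over all gene models tested at the pea-size stage it did so in 372 of 415 called interactions. The pea-size values both chose these gene models and entered the test, so the counts are not independent of the choice. The number called over all gene models was 423, and it was between 167 (S pea-size replicate 1 left out) and 1955 (S maturity replicate 1 left out).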

How the results depend on the processing

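Fewer gene models were higher in W than in S in each setting tried. The counts higher in W and higher in S, 711 and 1036 by the main test, were 1186 and 1988 with an unadjusted p, 289 and 687 with a log2FC of at least 2, 425 and 493 with all 12 libraries in 1 fit, and 1003 and 1661 with DESeq2. With 1 library left out they ranged from 245 to 952 and from 357 to 1503. The gene models called at both stages in the same direction, 98 by the main test, were 436 with an unadjusted p at maturity, 481 with DESeq2, 217 with all 12 libraries in 1 fit, and 6 to 529 with 1 library left out. Those called in opposite directions, 7 by the main test, were 87, 82, 33 and 0 to 108. Gene models detected only in W, 29 at a minimum of 10 counts, were 17 at a minimum of 20 and 32 to 69 with 1 library left out. Those detected only in S, 144 at first, were 89 and 171 to 438. The interaction was called for 423 gene models, for 1202 with DESeq2, and for 167 to 1955 with 1 library left out. The replicate numbers were not treated as pairs in the main test. At the pea-size stage the deviations of same-numbered libraries had correlations of 0.00257, -0.0491 and -0.0977. These values cannot decide whether same-numbered libraries shared a harvest or a preparation, which is not known here. With the replicate number as a block, 541 gene models were higher in W and 805 in S, 9 were called at both stages and 276 had a called interaction. Under a log2 CPM of 2 the median SD between replicates was 1.07 in W and 0.65 in S. The causes of these shifts were not tested.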
